A study of Caenorhabditis elegans with 9 samples.

Results

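Larvae of the nematode Caenorhabditis elegans that carry the oga-1(ok1207) mutation, and so lack the O-GlcNAcase, were compared with wild-type larvae across the genes of a whole-genome Affymetrix array. The comparison uses 6 of the 9 arrays in the series, 3 of oga-1 mutants and 3 of wild type, and the other 3 are of ogt-1(ok430) mutants, which lack the O-GlcNAc transferase. The groups are thus oga-1(ok1207), ogt-1(ok430) and wild type (N2 in the array descriptions), all as fed larvae of the fourth larval stage (L4). Each array holds the RNA of 20 animals, picked by hand at a like degree of vulval development, so every value is a mean over a pool and over all tissues. In such a pool, fewer cells of a type and less RNA per cell cannot be told apart. Each mutant strain carries 1 allele, and what else its genome carries is not stated. The labels call the arrays of a strain biological replicates.

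O-GlcNAc is a single sugar that is attached to serine and threonine residues of nuclear and cytoplasmic proteins. It is added by the transferase OGT-1 from UDP-GlcNAc, the end product of the hexosamine pathway, and removed by the O-GlcNAcase OGA-1. Each enzyme has 1 gene in the worm. Worms are viable without either enzyme, which lets both directions of the cycle be examined in whole animals, and the modification is known for its links to nutrient state, insulin-like signalling and the dauer decision.

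The array table holds 22625 probe sets, of which 77 are controls. Of the 22548 that were tested, 20766 name 1 gene, 887 name several and 895 name none, and a gene with more than 1 is represented by whichever is brightest on average over the 9 arrays, which leaves 17118 genes. Values are log2 signals between 3.49 and 14.93. A level on this scale is a brightness of 1 probe set and is not compared between genes. Expression profiles correlated at 0.990 to 0.992 among oga-1 arrays, at 0.990 to 0.994 among wild-type arrays and at 0.986 to 0.992 between the strains.

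Arrays 1 and 3 of oga-1 stood apart from the other 4 in their spread. The SD over probe sets was 1.85, 1.76 and 1.83 on the oga-1 arrays, against 1.75, 1.75 and 1.79 on the wild-type arrays, and the groups overlapped (exact permutation test over arrays, two-sided, p = 0.2, where 3 arrays against 3 cannot go below 0.1). On oga-1 arrays 1 and 3, bright probe sets ran above the wild-type mean and dim ones below it. In 10 groups of probe sets by level, the median deviation reached 0.18 and 0.14 in the bright groups and -0.11 and -0.11 in the dim ones. On oga-1 array 2 it stayed between -0.04 and 0.05. The actin control's 3' minus 5' signal, a measure of how far the labelled RNA extends, was 4.31, 4.39 and 3.90 on oga-1 arrays, against 4.73, 4.82 and 4.75 on wild-type arrays, without overlap (difference -0.57, exact p = 0.1). The same measure for Gapdh differed by -0.13 (exact p = 0.2). The part of these differences in the results below was not tested.

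**Figure D1:**
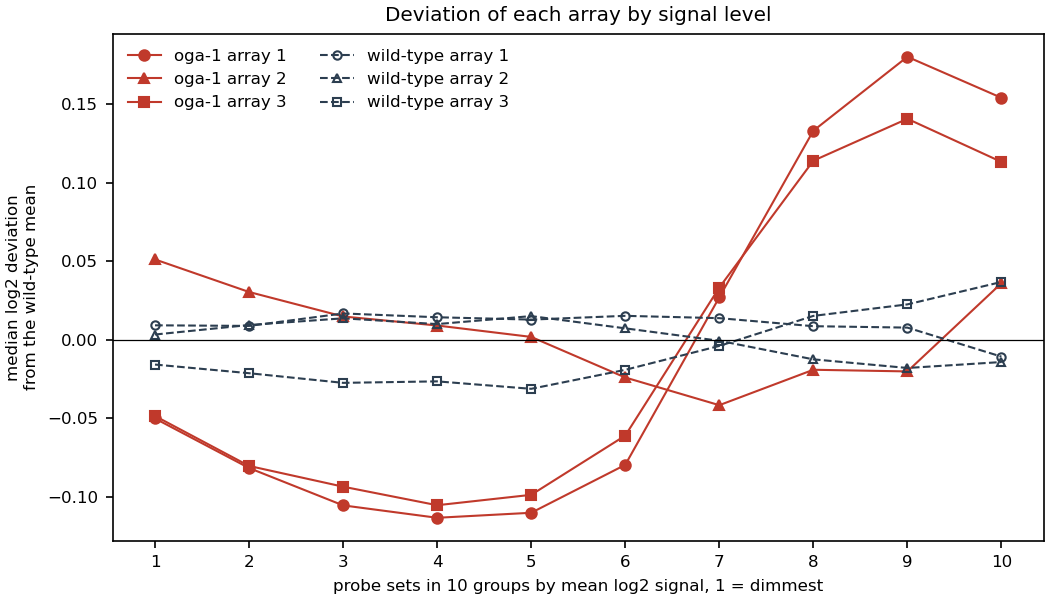
Median log2 deviation from the wild-type mean (vertical axis) of each oga-1 array (filled red, solid lines) and each wild-type array (open, dashed lines) in 10 groups of probe sets ordered by mean log2 signal (horizontal axis, 1 = dimmest). Arrays 1 and 3 of oga-1 run below 0 in the dim groups and up to 0.18 in the bright ones, while oga-1 array 2 stays within -0.04 to 0.05.

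The mutated gene was read dimly in every strain. The brightest oga-1 probe set (181147_s_at, gene on chromosome X) read 4.87, 5.09 and 4.84 in oga-1 mutants, 5.19, 5.47 and 5.29 in ogt-1 mutants and 5.38, 5.30 and 5.08 in wild type. Its lowest wild-type array lay just below its highest oga-1 array. The log2 difference from wild type was -0.32 (SE 0.11, limma adjusted p = 0.22), so the transcript was not called lower. Against ogt-1 mutants the same probe set was lower by a called difference of -0.38 (adjusted p = 0.028). The other oga-1 probe sets differed from wild type by -0.25 (173520_at, adjusted p = 0.23) and -0.28 (171812_x_at, adjusted p = 0.31). Both had oga-1 arrays wholly below the wild-type arrays, a pattern found in 11% of all probe sets. Against ogt-1 mutants they differed by -0.10 and -0.22, and neither was called (adjusted p = 0.49 and 0.23). Where the probes lie relative to the deleted part is not known from the sources used here, so these values do not check the genotype.

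The transferase gene ogt-1 was at the wild-type level in oga-1 mutants within the error of the arrays. It read 7.85, 8.08 and 7.88 in oga-1 mutants, against 7.96, 7.91 and 7.83 in wild type, a difference of 0.04 (95% interval -0.17 to 0.24, adjusted p = 0.90). None of the 8 measured genes of O-GlcNAc cycling and hexosamine synthesis was called, and their median difference was 0.15, against -0.02 over all genes. At an unadjusted p under 0.05, 2 were higher and 1 lower, against 8.06% and 7.07% of all genes. Values for the enzymes that lead to UDP-GlcNAc were 0.35 for gfat-2 and 0.18 for gfat-1, which make glucosamine 6-phosphate, and 0.46 for gna-2, an acetyltransferase (adjusted p = 0.15, 0.59 and 0.29). The gfat-2 arrays did not overlap, at 12.02, 11.84 and 11.84 in oga-1 mutants, against 11.49, 11.60 and 11.55 in wild type.

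In the unweighted fit over all 9 arrays, 58 of 22548 probe sets (0.257%) differed between oga-1 mutants and wild type at an adjusted p under 0.05 with Benjamini-Hochberg adjustment. Of these, 43 were higher (0.191%) and 15 lower (0.0665%) in the mutants, and quantile normalization, which makes the arrays equal in spread, gave 50 higher and 41 lower. The count was 848 with weights estimated for each array (597 higher and 251 lower) and 13 with the SD over probe sets of each array as a covariate, a fit added after the data were seen. At an unadjusted p under 0.05 the count was 3312 (14.7%). All 58 had oga-1 and wild-type arrays that did not overlap, as had 20.5% of all probe sets. The calls named 54 genes (0.315% of genes), 42 higher and 12 lower, and 8 of these genes were called only with a probe set other than their brightest. Counted by the brightest probe set alone, 46 of 17118 genes were called (0.269%). For scale, the same fit called 17.3% of probe sets between ogt-1 mutants and wild type and 23.9% between oga-1 and ogt-1 mutants.

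Most called changes were small. The median size was 0.80 on the log2 scale and the smallest 0.45, and 11 rises and 4 falls reached a doubling or a halving. The median SE of a difference was 0.11, so the 95% interval of a typical probe set ran 0.24 either side of its value. Only 8 calls held in each of the 9 fits that left out 1 array, and the total ran between 9 (without wild-type array 1) and 89 (without ogt-1 array 1). Other departures by over 1.5 times came without oga-1 array 1 (21 calls) and without wild-type array 2 (13 calls). Without the 3 arrays whose SD was over 1.8 (oga-1 arrays 1 and 3 and ogt-1 array 3), a choice made after the data were seen, 3 probe sets were called, those of cpr-4 and idpp-7 and 184103_s_at. That fit holds 1 oga-1 array, which is assumed to vary like the other groups.

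**Figure D2:**
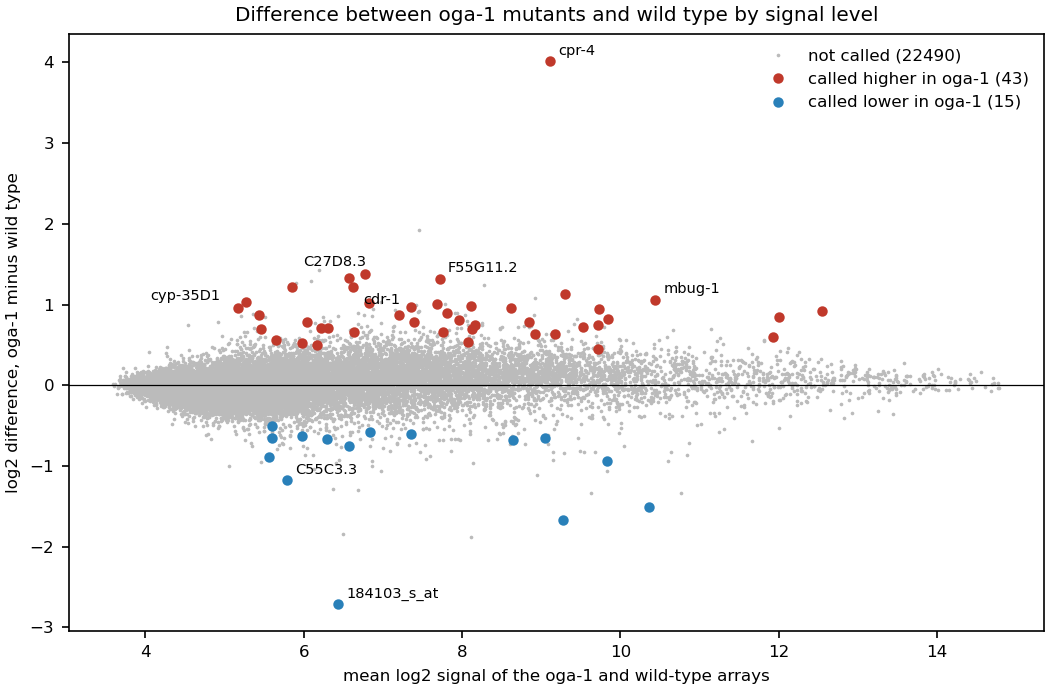
Log2 difference, oga-1 minus wild type (vertical axis), against the mean log2 signal of the 6 arrays (horizontal axis) for all 22548 probe sets. Red points are the 43 called higher, blue points the 15 called lower, grey points were not called, and the 8 calls that held without any 1 array are named. The point for cpr-4 lies at 4.02, far above the rest.

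The largest change was in cpr-4, an intestinal gene for a cysteine protease of the cathepsin B type. Its signal was 11.08, 11.06 and 11.22 in oga-1 mutants, against 7.06, 7.07 and 7.18 in wild type. Replicates lay within 0.2 of one another, and the gap between the strains was over 10 times that. The difference of 4.02 (SE 0.14, limma adjusted p = 5.1e-08) is 16-fold. No other probe set rose by 2 or more on the log2 scale.

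Another 6 single genes and 1 probe set that names several genes kept their calls without any 1 array. The probe set 184103_s_at had the largest fall, at 5.01, 5.06 and 5.19 in oga-1 mutants, against 7.93, 7.64 and 7.81 in wild type (difference -2.71, SE 0.10, adjusted p = 5.1e-08), and since it names 2 genes its gene is left unnamed. C27D8.3 read 7.49, 7.17 and 7.03 in oga-1 mutants, against 6.02, 5.93 and 5.77 in wild type (1.33, SE 0.12, adjusted p = 0.0012). In both, every mutant array stood clear of every wild-type array by more than 1 on the log2 scale.

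Both F55G11.2 and mbug-1 (sequence name F55G11.4), genes of 1 sequenced clone by their names, rose. F55G11.2 read 8.66, 8.37 and 8.10 in oga-1 mutants, against 7.07, 7.20 and 6.90 in wild type (1.32, SE 0.14, adjusted p = 0.0032). For mbug-1 the arrays read 11.13, 11.02 and 10.76 in oga-1 mutants, against 9.99, 9.99 and 9.75 in wild type (1.06, SE 0.12, adjusted p = 0.0050). The other 8 measured genes with F55G11 sequence names were not called, among them dod-22 (0.05, adjusted p = 0.94) and F55G11.8 (0.38, adjusted p = 0.41).

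The metal-responsive gene cdr-1, which is known for its induction by cadmium, read 7.44, 7.06 and 7.20 in oga-1 mutants, against 6.06, 6.09 and 5.90 in wild type (1.22, SE 0.13, adjusted p = 0.0036). C55C3.3 fell, with 5.29, 4.92 and 5.39 in oga-1 mutants, against 6.46, 6.52 and 6.15 in wild type (-1.17, SE 0.13, adjusted p = 0.0050). The cytochrome P450 gene cyp-35D1 read 5.73, 5.72 and 5.49 in oga-1 mutants, against 4.59, 4.57 and 4.90 in wild type (0.96, SE 0.11, adjusted p = 0.0052). These 3 genes were dim to middling on the array, and in each the groups were separated by at least 0.5.

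**Figure D3:**
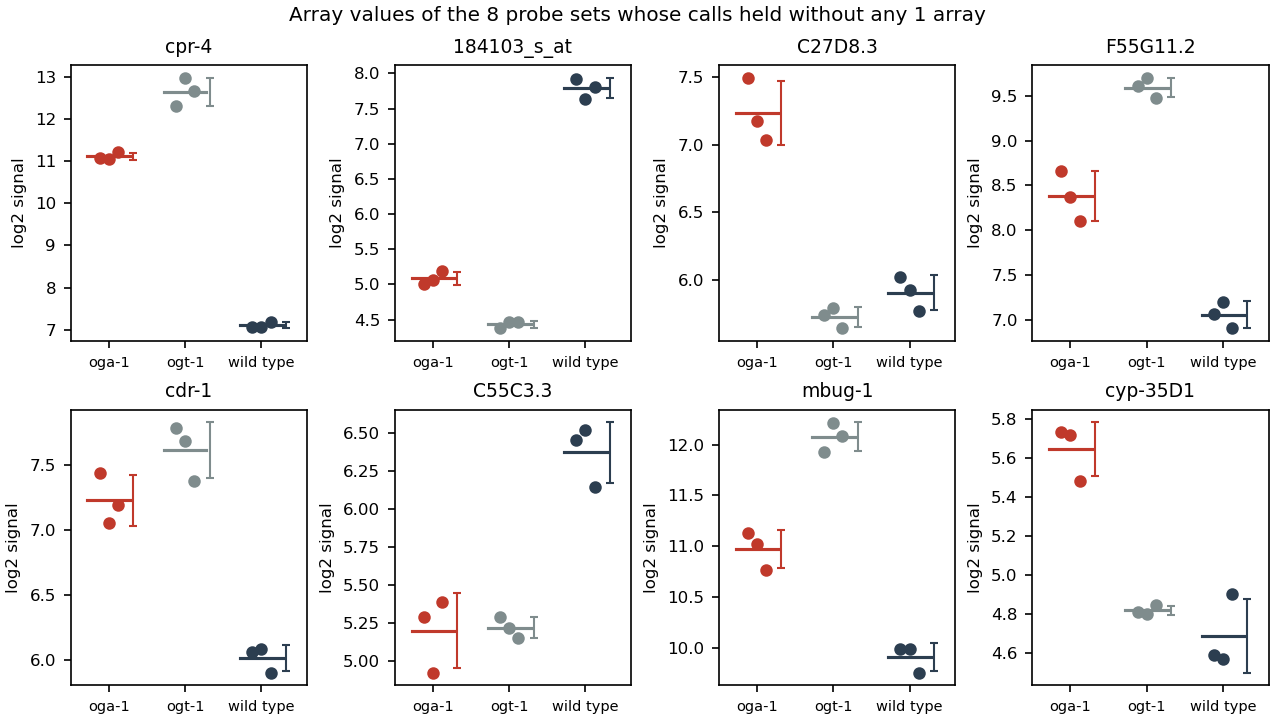
Log2 signal (vertical axes, which differ between panels and do not start at 0) of the 8 probe sets whose calls held without any 1 array, in oga-1 mutants (red), ogt-1 mutants (grey) and wild type (dark). Points are arrays, horizontal lines group means and brackets 1 SD (n = 3). For cpr-4 the oga-1 arrays lie between 11.06 and 11.22 and the wild-type arrays between 7.06 and 7.18.

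Several of the other called rises were of hydrolase genes, which are put together here by their known products after the calls were seen. The acid ceramidase gene asah-1, whose product cleaves ceramide in lysosomes, read 9.75, 9.90 and 9.93 in oga-1 mutants, against 8.52, 8.62 and 9.04 in wild type (1.13, SE 0.17, adjusted p = 0.023). Its relative asah-2 had a difference of 0.63 that was not called. The carboxypeptidase gene ctsa-4.1, of the cathepsin A family, read 8.13, 7.74 and 7.65 in oga-1 mutants, against 6.79, 6.99 and 6.84 in wild type (0.97, SE 0.13, adjusted p = 0.0095). In both genes the lowest mutant array was well above the highest wild-type array.

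The related ctsa-1.2 was called with its dimmer probe set, at 7.68, 7.65 and 7.59 in oga-1 mutants, against 6.70, 6.87 and 6.75 in wild type (0.87, SE 0.11, adjusted p = 0.0088), whereas its brighter probe set differed by 0.29 (adjusted p = 0.24). The lipase gene lips-10 rose by 0.89 (adjusted p = 0.015), with 8.31, 8.12 and 8.34 in oga-1 mutants, against 7.32, 7.41 and 7.38 in wild type. It was the only called one of 16 lips genes, of which 3 had positive differences and whose median was -0.08. The neprilysin-family peptidase gene nep-17 rose by 0.63 (adjusted p = 0.042), and vha-14, which encodes a subunit of the proton pump that acidifies lysosomes, by 0.70 (adjusted p = 0.015) with a dimmer probe set and by an uncalled 0.38 with its brightest.

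Of 68 measured autophagy, lysosome and vacuolar ATPase genes, none was called by its brightest probe set, 16 were higher and 2 lower at an unadjusted p under 0.05, against 8.06% and 7.07% of all genes, and the median was 0.11. Among 26 measured cathepsin B-like and aspartic proteases, cpr-4 was the 1 call, against 0.269% of all genes. A further 11 were higher at an unadjusted p under 0.05, a level that 8.06% of all genes passed in that direction, and 1 was lower. The median of the list was 0.28, and its values on the 3 oga-1 arrays were 0.24, 0.22 and 0.22 above the wild-type mean. The protease list shares members with the autophagy, lysosome and vacuolar ATPase list, so their counts are not independent. All 8 measured cpr genes had positive differences, with a median of 0.46. Those of cpr-5 (0.59), cpr-8 (0.53) and cpr-3 (0.50) had arrays that did not overlap and were not called (adjusted p = 0.13, 0.14 and 0.32). The aspartic protease gene asp-8 stood at 0.85 (adjusted p = 0.066), and asp-12, at 9.76, 9.22 and 6.25 in oga-1 mutants, against 6.66, 6.31 and 6.50 in wild type, was high on 2 of 3 mutant arrays (1.92, adjusted p = 0.24).

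A second group was the cytochrome P450 35 subfamily, whose products are known for the response to foreign compounds and a part in fat storage. Beside cyp-35D1, cyp-35A5 rose, with 6.61, 6.39 and 6.30 in oga-1 mutants, against 5.66, 5.62 and 5.64 in wild type (0.79, SE 0.10, adjusted p = 0.0088). A dimmer probe set of cyp-35C1 read 8.51, 7.97 and 8.09 in oga-1 mutants, against 7.03, 7.38 and 7.13 in wild type (1.01, SE 0.16, adjusted p = 0.028). The brightest cyp-35C1 probe set gave 0.49 (adjusted p = 0.21), and cyp-35A4 gave 0.94 (adjusted p = 0.065).

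Every one of the 10 measured cyp-35 genes was higher on average in oga-1 mutants, between 0.22 and 0.96, with a median of 0.55, and 7 had arrays wholly above the wild-type arrays, a pattern found in 9.53% of all probe sets. The family median was 0.78, 0.49 and 0.58 on the 3 mutant arrays. The family was picked out after these values were seen. Several members are near copies of one another, so their probe sets may share signal and are not independent. Over all 73 cytochrome P450 genes the median was 0.01, and 2 were called by their brightest probe set.

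Genes with known or presumed roles in defence moved in both directions. The lysozyme gene lys-7 read 8.77, 8.20 and 8.83 in oga-1 mutants, against 7.76, 7.62 and 7.48 in wild type (0.98, SE 0.17, adjusted p = 0.042). The saposin-like gene spp-18 rose by 0.60 and the C-type lectin gene clec-76 by 0.87 (adjusted p = 0.042 and 0.015). Of 220 C-type lectin genes clec-76 was the only call, and their median was -0.05.

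The antimicrobial peptide gene nlp-33, which is made in the epidermis, fell. It read 9.54, 9.35 and 9.20 in oga-1 mutants, against 10.43, 10.39 and 10.08 in wild type (-0.94, SE 0.12, adjusted p = 0.0088). Its relatives nlp-29 and nlp-31 had differences of -0.57 and -0.54, each with arrays that did not overlap and neither called (adjusted p = 0.14 and 0.19). The widest difference of the list was in fipr-26, at 4.98, 5.22 and 6.52 in oga-1 mutants, against 7.49, 7.28 and 7.48 in wild type. The third mutant array lay between the other 2 and the wild-type arrays, and the difference of -1.84 was not called (adjusted p = 0.18).

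Of the 69 measured lysozymes, saposins and antimicrobial peptides, 2 were called higher and 1 lower. At an unadjusted p under 0.05, 20 were lower, against 7.07% of all genes in that direction, and 4 were higher. The list median was -0.18, with -0.26, -0.16 and -0.05 on the 3 oga-1 arrays. In a fit with the SD over probe sets of each array as a covariate, chosen after the data were seen, it was -0.10. The core of the p38 MAP kinase pathway, which regulates many immune genes, had no call among 10 genes and a median of -0.04. At an unadjusted p under 0.05, 1 of the 10 was higher and 1 lower, against 8.06% and 7.07% of all genes. The effector dod-24 was high on 2 of 3 mutant arrays, at 10.13, 9.70 and 8.53 in oga-1 mutants, against 8.44, 8.37 and 8.31 in wild type (1.08, adjusted p = 0.17).

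Other called rises were of single genes with varied roles. The gene cls-3 encodes a CLASP protein, which binds microtubules, and read 6.84, 6.50 and 6.04 in oga-1 mutants, against 5.12, 5.34 and 5.28 in wild type (1.21, SE 0.16, adjusted p = 0.0095). Its mutant arrays were spread over 0.8. The Furry-family gene sax-2, known for the shape of neurons, rose by 1.02 (adjusted p = 0.015), and aspm-1, whose product acts at spindle poles, by 0.81 (adjusted p = 0.020). The syntaxin gene syx-4, which acts in membrane fusion, rose by 0.74 (adjusted p = 0.0088), with 8.48, 8.58 and 8.57 in oga-1 mutants, against 7.78, 7.73 and 7.88 in wild type.

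The gene cec-4 rose by 0.78 (adjusted p = 0.015). It encodes a chromodomain protein that holds methylated chromatin at the nuclear envelope, and it read 7.88, 7.67 and 7.83 in oga-1 mutants, against 6.94, 6.98 and 7.10 in wild type. The TFIID subunit gene taf-6.1 rose by 0.56, the splicing factor gene rbm-25 by 0.53 and tofu-2, which acts in piRNA processing, by 0.72 (adjusted p = 0.042, 0.042 and 0.046). For the Sm protein gene snr-2 a dimmer probe set gave 0.45 (adjusted p = 0.048), the smallest called change, and the brightest gave 0.26 (adjusted p = 0.41). The gene lists used here do not hold cec-4 or rbm-25. By their brightest probe sets, none of the 55 splicing and RNA-binding genes, 78 chromatin genes or 42 nuclear pore genes listed was called. At an unadjusted p under 0.05, 12, 8 and 10 of them were higher and 1, 6 and 0 lower. The shares higher were 21.8%, 10.3% and 23.8%, against 8.06% of all genes. The shares lower were 1.8%, 7.7% and 0%, against 7.07% of all genes.

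F01D5.5 rose by 0.96 and F01D5.1 by 0.95 (adjusted p = 0.010 and 0.018), while the other 8 measured genes with F01D5 sequence names were not called. The remaining called rises fall in none of the groups above. They were idpp-7 (1.38), clc-11 (1.03), C14C6.5 (0.92, and 0.84 with its other probe set), F27C1.2 (0.83), ari-1.4 (0.78), lea-1 (0.74), T04D3.8 (0.71), T27F6.7 (0.70), srlf-30 (0.70), F26F4.5 (0.66), C39E9.12 (0.66), C05C10.5 (0.64), haf-6 (0.53) and Y57G11C.3 (0.50), with adjusted p between 0.0088 and 0.048. The widest spread was in idpp-7, which read 8.02, 7.57 and 6.82 in oga-1 mutants, against 6.11, 6.02 and 6.13 in wild type. The gene lea-1 has 6 probe sets, all higher in the mutants, between 0.25 and 0.74, of which 1 was called. The called probe sets of ari-1.4 and F26F4.5 were dimmer ones, and their brightest gave uncalled differences of 0.76 and 0.13.

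The called falls were fewer. After 184103_s_at, the deepest were in 2 genes whose wild-type arrays varied. F23F12.12 read 8.47, 8.33 and 8.51 in oga-1 mutants, against 10.37, 10.38 and 9.58 in wild type (-1.67, SE 0.22, adjusted p = 0.0088). F15E6.4 read 9.32, 9.42 and 10.07 in oga-1 mutants, against 11.30, 11.42 and 10.60 in wild type (-1.50, SE 0.27, adjusted p = 0.049). In both, the third wild-type array was the lowest of its group, and in F15E6.4 the gap between the closest arrays of the strains was 0.5.

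The scramblase gene scrm-4, whose family moves phospholipids across membranes, read 5.19, 5.01 and 5.13 in oga-1 mutants, against 6.08, 5.77 and 6.15 in wild type (-0.89, SE 0.11, adjusted p = 0.0087). The mitochondrial import gene tin-10 read 8.69, 8.63 and 8.82 in oga-1 mutants, against 9.54, 9.32 and 9.26 in wild type (-0.66, SE 0.10, adjusted p = 0.020). In neither did the strains overlap. Falls of 0.5 to 0.8 were called for sshk-1 (-0.76), the rhomboid-family gene rom-2 (-0.66), F57A10.2 (-0.65), the transporter-like gene svop-1 (-0.63, and an uncalled 0.05 with its other probe set), W10G11.3 (-0.58) and oac-46 (-0.51, dimmer probe set, and an uncalled -0.45 with its brightest). A further 2 probe sets, each naming 3 histone genes, fell by 0.68 and 0.61 on the log2 scale (adjusted p = 0.048 and 0.033), and the genes behind them cannot be told apart here. Of 36 histone genes measured by probe sets that name 1 gene, none was called, and their median was -0.01. At an unadjusted p under 0.05, 6 of the 36 were higher and 2 lower, against 8.06% and 7.07% of all genes.

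The genes of insulin-like signalling, dauer formation and sugar storage held no call. Among 18 core genes of the insulin and FOXO pathway, 1 was higher and 3 were lower at an unadjusted p under 0.05. Those shares are 5.6% and 16.7%, against 8.06% and 7.07% of all genes. The median of the list was 0.07. The FOXO gene daf-16 read 7.28, 7.18 and 6.92 in oga-1 mutants, against 7.58, 7.43 and 7.45 in wild type, a difference of -0.36 (adjusted p = 0.23). For ftt-2, a 14-3-3 protein that holds DAF-16 in the cytoplasm, the difference was -0.37 and for the kinase gene akt-2 it was -0.30 (adjusted p = 0.17 and 0.18). The kinase genes age-1 and akt-1 stood at 0.32 and 0.29 (adjusted p = 0.47 and 0.35), and the receptor gene daf-2 at -0.03 (adjusted p = 0.93).

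Insulin-like peptide genes lay mostly below wild type, though none passed the test. Of 24 measured, 1 was higher and 6 were lower at an unadjusted p under 0.05, against 8.06% and 7.07% of all genes. Negative differences were found in 21, and 12 had oga-1 arrays wholly below the wild-type arrays, a pattern found in 11% of all probe sets. The list median was -0.21, at -0.22, -0.16 and -0.17 on the 3 mutant arrays, and -0.18 with the array SD as a covariate. The nearest to a call was ins-33, at 5.42, 5.78 and 5.56 in oga-1 mutants, against 6.69, 6.26 and 6.40 in wild type (-0.87, adjusted p = 0.065). Those of ins-22 and ins-6 were -0.75 and -0.53 (adjusted p = 0.088 and 0.11).

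In the dauer pathway, 0 of 23 genes were called by limma, with 1 higher and 3 lower at an unadjusted p under 0.05. The TGF-beta ligand gene daf-7 read 4.88, 5.12 and 5.04 in oga-1 mutants, against 5.81, 5.56 and 5.48 in wild type (-0.60, adjusted p = 0.066), and its receptor gene daf-1 had a difference of -0.35 (adjusted p = 0.15). None of 17 trehalose and glycogen genes was called, and their median was 0.00. At an unadjusted p under 0.05, 3 were higher (17.6%) and 1 lower (5.9%), against 8.06% and 7.07% of all genes. Values were 0.42 for the trehalase gene tre-1, 0.49 for the glycogen phosphorylase gene pygl-1 and -0.38 for the trehalose synthase gene tps-1 (adjusted p = 0.15, 0.15 and 0.22).

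Several larger gene lists had medians away from that of all genes with few or no calls. Among them, 31 oocyte and maternal genes had a median of 0.25, 41 germline genes 0.21, 33 proteasome subunits 0.20 and 56 mitochondrial ribosomal proteins 0.13, with no call in any of them. The shares higher at an unadjusted p under 0.05 were 11 of 31, 12 of 41, 10 of 33 and 15 of 56, against 8.06% of all genes. On the other side, 1276 chemoreceptor genes had a median of -0.12 with no call (1 higher and 189 lower at an unadjusted p under 0.05, against 7.07% of all genes lower), and 86 neuropeptide genes had -0.15 with nlp-33 as the call.

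These shifts were uneven over the mutant arrays. The oocyte list stood at 0.35, 0.15 and 0.16 on oga-1 arrays 1, 2 and 3. In the same order, the proteasome list stood at 0.38, 0.10 and 0.13 and the chemoreceptor list at -0.19, -0.02 and -0.16. With the array SD as a covariate the medians were 0.11 for oocyte genes, 0.08 for germline genes, 0.10 for the proteasome and -0.01 for chemoreceptors. The protease list kept 0.21 and the neuropeptide list -0.13 in that fit. What part the spread of the arrays had in these medians was not tested further.

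**Figure D4:**
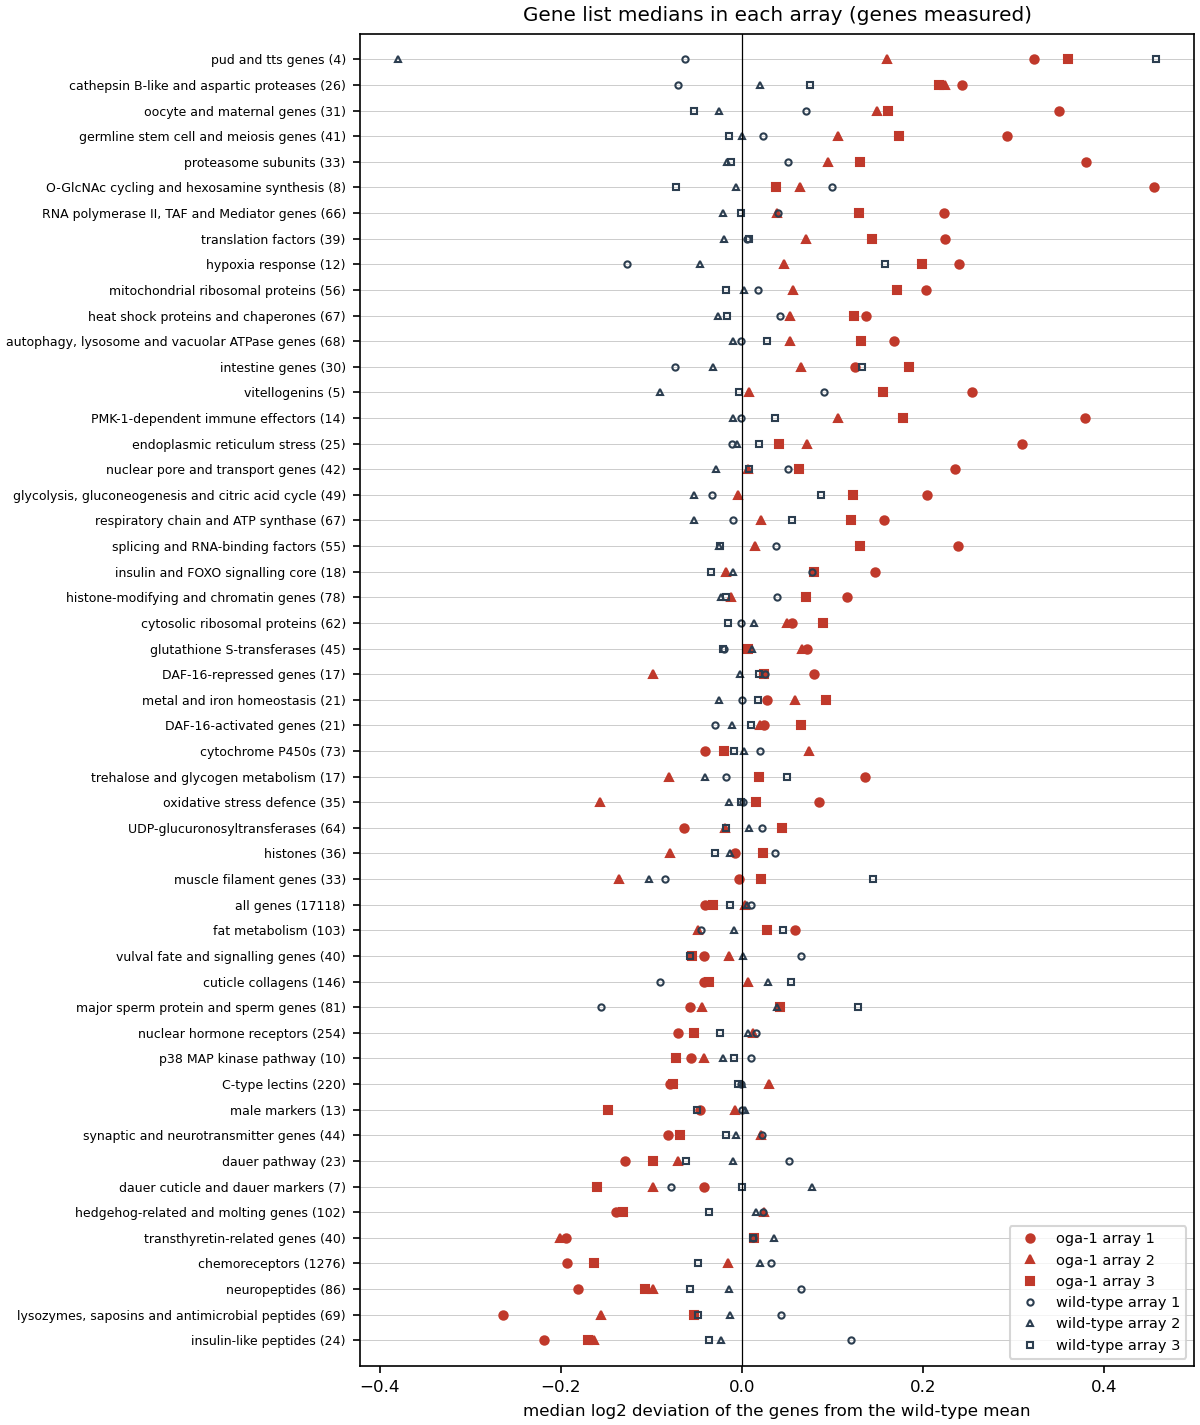
Median log2 deviation from the wild-type mean (horizontal axis) of the genes of 50 lists and of all genes, on each oga-1 array (filled red) and each wild-type array (open dark), with the number of measured genes in brackets. The protease list lies at 0.22 to 0.24 on all 3 oga-1 arrays. The oocyte and proteasome lists are highest on oga-1 array 1 and lower on arrays 2 and 3. The chemoreceptor list lies at -0.02 on oga-1 array 2 and at -0.19 and -0.16 on arrays 1 and 3.

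Markers of other stages, sexes and tissues were checked for a shift of the staged animals. The 31 oocyte and maternal genes given above are among these markers, with a median of 0.25 and no call. Their mean levels were 10.37 to 10.55 in oga-1 mutants, against 10.15 to 10.30 in wild type. At an unadjusted p under 0.05, 11 were higher and 0 lower, against 8.06% and 7.07% of all genes. The 5 vitellogenin genes, which mark the adult intestine, had mean levels of 12.66 to 12.95 in oga-1 mutants, against 12.54 to 12.74 in wild type, and no call (median 0.10, 1 higher at an unadjusted p under 0.05). The 13 male markers had 4.68 to 4.84 in oga-1 mutants, against 4.79 to 4.85 in wild type, and the 7 dauer markers 5.30 to 5.35, against 5.35 to 5.43 in wild type, again without a call (1 and 2 genes lower at an unadjusted p under 0.05). Sperm genes (81, median -0.03), muscle filament genes (33, median -0.02) and synaptic genes (44, median -0.06) held none, with 6, 2 and 3 higher and 5, 2 and 3 lower at an unadjusted p under 0.05. Of 30 intestine genes only cpr-4 was called, but 7 were higher and 0 lower at an unadjusted p under 0.05, against 8.06% and 7.07% of all genes, and their median was 0.11. Of 102 hedgehog-related and molting genes none was called, and their median was -0.08. At an unadjusted p under 0.05, 1 was higher and 12 were lower, against 8.06% and 7.07% of all genes. The list median was -0.14, 0.02 and -0.13 on oga-1 arrays 1, 2 and 3, and 0.01 with the array SD as a covariate.

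Genes called by any probe set (0.315% of all genes) numbered 8 on chromosome I, 10 on II, 8 on III, 14 on IV and 14 on V, which is 0.324% to 0.525% of the genes measured there. On X, which carries oga-1 itself, none of 2351 measured genes passed the threshold, the nearest being lin-15A (-0.62, adjusted p = 0.051). At an unadjusted p under 0.05, 95 of them were higher and 180 lower, against 8.06% and 7.07% of all genes. In either direction, 11.7% of the X genes passed that level, against 14.7% to 16.3% on the other chromosomes. Of the 16 protein-coding genes nearest to oga-1, 12 were measured and none was called, with 1 higher and 1 lower at an unadjusted p under 0.05. The nearest to a call was the filamin gene fln-2, with a mean of 6.68 in oga-1 mutants, against 7.50 in wild type (-0.82, adjusted p = 0.068).

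The mutants of the 2 enzymes are set side by side for some of the called genes, all of which are in the plot of both mutants, and for 2 insulin-like peptides that were not called. Both are measured against the same 3 wild-type arrays, so the differences from wild type are not independent, and the oga-1 minus ogt-1 difference was tested on its own in the same fit. For cpr-4 the difference from wild type was 4.02 in oga-1 mutants and 5.55 in ogt-1 mutants, and the mutants differed by -1.53 (adjusted p = 2.25e-05). F55G11.2 stood at 1.32 in oga-1 and 2.53 in ogt-1 mutants, and mbug-1 at 1.06 and 2.17 (adjusted p of the difference = 8.7e-05 and 6.6e-05). For C55C3.3 the values were -1.17 in oga-1 mutants and -1.16 in ogt-1 mutants, a difference of -0.02 (adjusted p = 0.94). The difference between the mutants in scrm-4 was 0.12 (adjusted p = 0.51).

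Other genes separated the mutants. C27D8.3 stood at 1.33 in oga-1 mutants and -0.18 in ogt-1 mutants (difference 1.51, adjusted p = 8.7e-06), and cls-3 at 1.21 and -0.43 (difference 1.64, adjusted p = 3.4e-05). The cyp-35 family had a median of 0.55 in oga-1 mutants and -0.32 in ogt-1 mutants. For cyp-35A5 the values were 0.79 and -0.52 (difference 1.30, adjusted p = 7.1e-06) and for cyp-35D1 0.96 and 0.13 (difference 0.83, adjusted p = 0.00027). Among insulin-like peptides, ins-33 had -0.87 in oga-1 mutants and 1.06 in ogt-1 mutants, and ins-22 had -0.75 and 1.67 (adjusted p of the difference = 1.7e-05 and 2.2e-06).

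**Figure D5:**
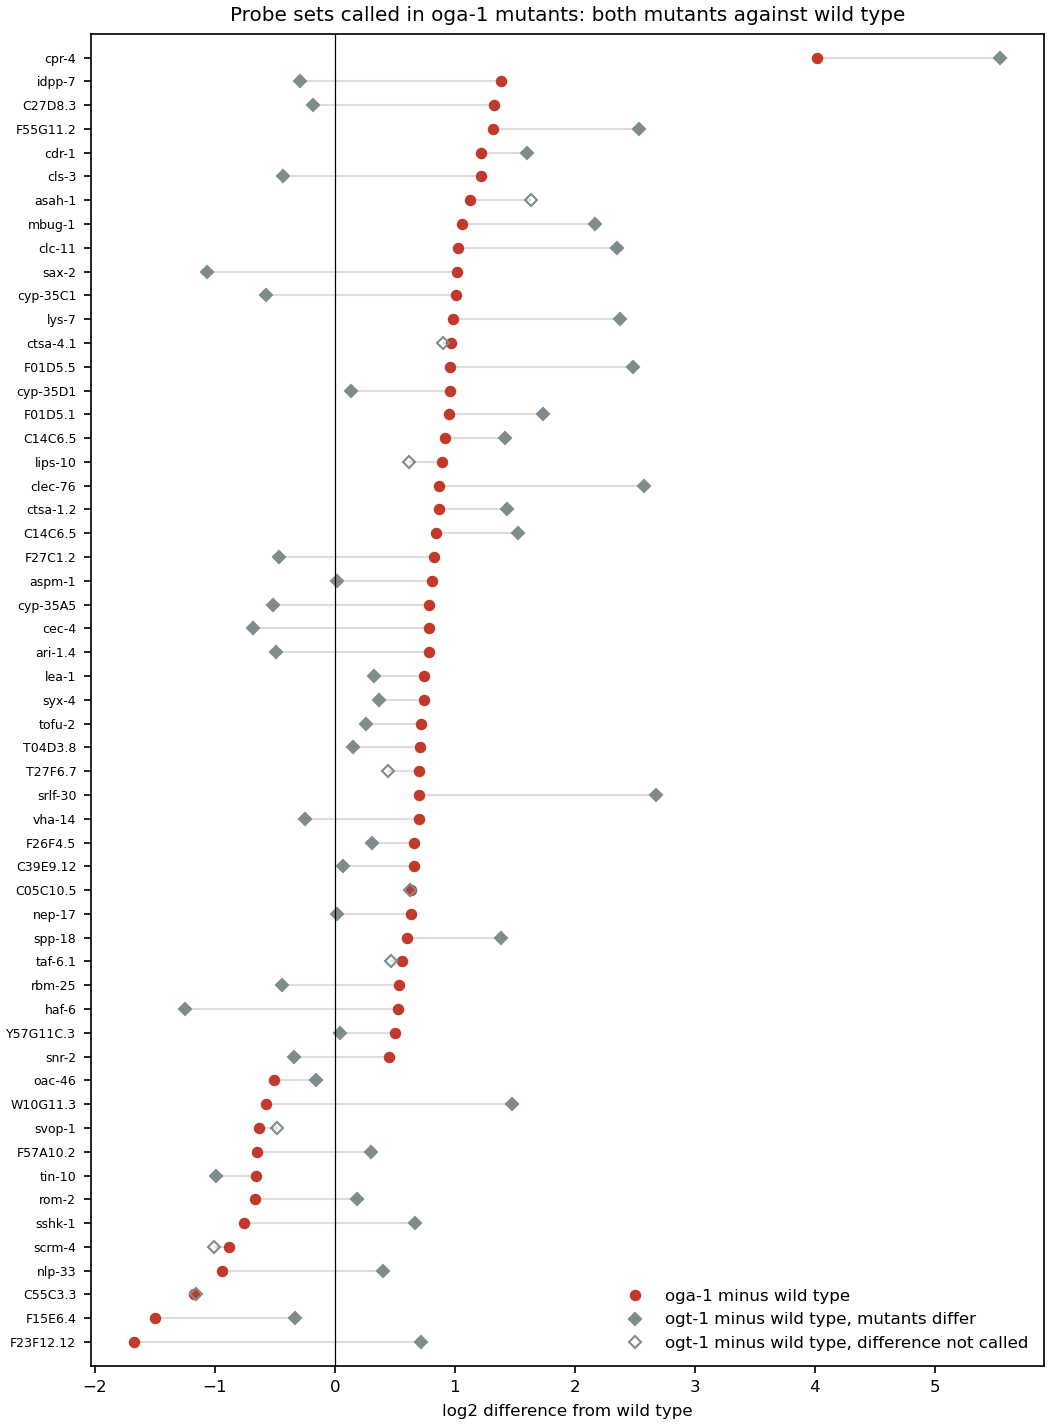
Log2 difference from wild type (horizontal axis) of the 55 called probe sets that name 1 gene, in oga-1 mutants (red circles) and in ogt-1 mutants (grey diamonds, filled where the direct test between the mutants passed an adjusted p under 0.05). Grey lines join the 2 values of a probe set, and cpr-4 stands at 4.02 in oga-1 and 5.55 in ogt-1 mutants.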

How the data were processed

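The labels name L4 larvae of 3 strains, 3 arrays each, with 1 round of T7 amplification of Trizol-extracted RNA before biotin labelling. The deposited table holds log2 values, 1 per probe set and array; MAS5, RMA and Partek are named in the submitters' processing notes with no role or version, and the array means of 5.91 are equal on all 9 arrays. Background correction and summarisation could not be redone from this table. Probe sets were named through GEO's platform annotation and RefSeq identifiers (65 of 20766 not found there). The deposited log2 values were fitted without further normalization or filter in limma 3.58.1 (R 4.3.3): strain as the only term, all 9 arrays, 6 residual degrees of freedom, moderated statistics, Benjamini-Hochberg adjustment over 22548 probe sets, called at an adjusted p under 0.05. The fit was tested on simulated data with independent noise for each probe set and array. Those data hold no array-wide shift like that on oga-1 arrays 1 and 3, so the test does not bear on it. The number of arrays limits the precision. Single technical measures were compared by exact permutation tests over arrays.

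Genes, families and the 50 lists were chosen with earlier results of these data known, and the chemoreceptor list was narrowed after it was seen to take in other gene classes. Named genes were the mutated genes, the 20 largest called rises and all called falls, and from each list those with the smallest p; further called rises and the families were named after their values were seen. Replicate numbers were not used to pair the arrays in the main fit. Deviations of same-numbered oga-1 and wild-type arrays correlated at 0.071, 0.166 and 0.244, and so few arrays cannot settle whether equal numbers mark pairs. Alternatives were other normalizations, level filters, variance models, thresholds, probe sets, a replicate block and leaving out arrays. No sequences were used.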

Additional observations from a re-analysis of the deposited data

Results flagged for a closer look

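For the following results, the direct test between the mutants passed and the 2 mutants were each called against wild type, in opposite directions. The same wild-type arrays enter both of those calls, and no explanation was tested. The log2 difference, oga-1 minus ogt-1, was -2.39 for F23F12.12, -2.05 for W10G11.3, -1.43 for sshk-1 and -1.34 for nlp-33. It was -2.86 and -2.32 for the probe sets 192280_s_at and 190307_s_at, which each name 3 histone genes. In the other direction it was 2.09 for sax-2, 1.78 for haf-6, 1.47 for cec-4, 1.30 for cyp-35A5, 1.30 for F27C1.2 and 0.97 for rbm-25. It was 1.58, 1.27 and 0.79 for the called probe sets of cyp-35C1, ari-1.4 and snr-2. These were dimmer ones, and the brightest probe sets of the same genes were not called between oga-1 mutants and wild type. The adjusted p of these differences ran between 3.3e-08 and 7.1e-05 (limma). None of the oga-1 calls against wild type given here was among the 8 that held in every fit leaving out 1 array. That of snr-2 was lost in each of those fits. The widest separation among genes of 1 name was in F23F12.12, which read 8.47, 8.33 and 8.51 in oga-1 mutants, 11.01, 10.40 and 11.08 in ogt-1 mutants and 10.37, 10.38 and 9.58 in wild type.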

How the results depend on the processing

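The number of calls depended on the setting far more than the direction of the called genes. Against 58 calls, there were 91 with quantile normalization, 94 with an intensity trend and robust variance, 848 with array weights, 198 at an adjusted p under 0.1, 13 with the SD over probe sets as a covariate and 3 without the 3 arrays of highest SD, the last 2 chosen after the data were seen. Calls of rises (43) became 597 with array weights, 127 at an adjusted p under 0.1, 7 with the SD covariate and 2 without the 3 arrays. Calls of falls (15) became 41 with quantile normalization, 8 with median centring, 25 among probe sets above the median level, 32 with the trend and robust variance, 251 with array weights, 71 at an adjusted p under 0.1, 6 with the SD covariate and 1 without the 3 arrays. Leaving out 1 array gave 9 to 89 calls, 7 to 61 rises and 2 to 28 falls. With the replicate number as a block there were 77 calls, 54 rises and 23 falls, and 3 of 9 arrays correlated best with arrays of their own number. The cause of these shifts was not tested. The oga-1 transcript was lower and not called under all settings run.

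For single genes and probe sets, counting each gene under each setting, 1624 values kept their direction and call status, 403 kept their direction but lost the call and 64 gained one. The 1624 include genes that were not called and stayed uncalled, so these counts do not give the share of calls kept. Of the 58 calls, 53 were kept with quantile normalization, 40 with median centring and 11 with the SD covariate. With 1 array left out, between 9 (without wild-type array 1) and 57 (without ogt-1 array 1) were kept. Medians of gene lists moved by less than the SD over the oga-1 arrays in 929 cases and by more in 138. Values that changed sign were under 0.2 in size under the setting that turned them. The ogt-1 difference was -0.062 with quantile normalization, -0.0087 with array weights, -0.035 to 0.079 when 1 array was left out (lowest without oga-1 array 2), -0.078 for the mean of its probe sets and -0.19 for the dimmer one. That of daf-2 was 0.011 with median centring, 0.031 with array weights, and 0.11 and 0.0019 without oga-1 array 2 and wild-type array 1. For dod-22 it was -0.12 to 0.17 when 1 array was left out (below 0 without oga-1 array 1 or wild-type array 3), -0.15 with the SD covariate and -0.19 without the 3 arrays. For age-1 the last 2 settings gave -0.018 and -0.026, and without the 3 arrays gfat-1 gave -0.075 and the brightest probe set of F26F4.5 -0.086. The dimmest probe sets gave 0.053 for svop-1, 0.031 for tps-1 and 0.070 for daf-16.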
